A study of Rattus norvegicus with 12 samples.

Results

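The ATF4 amino acid stress genes are 35 rat genes of the integrated stress response, of serine, glycine, proline and asparagine synthesis, of amino acid uptake and of tRNA charging. They were chosen by name, and probes were assigned to them through the RefSeq transcript that each probe carries on the array. Of the 35 genes, 34 had a named probe and 33 were tested, among 16581 named genes on the array and 10740 named genes tested. *Slc7a1*, which encodes a transporter of cationic amino acids, had no named probe, and *Fgf21*, which encodes a secreted metabolic hormone, was not well above background on any of the 12 arrays. Each of the 33 tested members was well above background on all 12 arrays, so none entered the tests through its level in 1 group alone.

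L6 cells are a line of rat muscle precursors that fuse into multinucleated myotubes when differentiated. The study set 3 plant-related compounds beside their solvent to ask how they change gene expression in such myotubes. Each of 3 independent experiments, on a single batch of cells, gave 1 Agilent 1-colour RNA array for each of 4 groups, 12 in all. Between 58.0% and 64.3% of the spots of an array were well above background and 0 were saturated, and the number of arrays limits the precision.

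The 4 groups were myotubes given DMSO alone, called the control, and myotubes given 60 µM of GR24, pinosylvin or resveratrol in DMSO, each for 24 h. By the sample labels the cells had been differentiated for 6 days. The paper gives another number of days. All groups therefore share the cell line, the differentiation, the DMSO and the treatment time, and the compounds share the dose. GR24 is a synthetic analog of the strigolactones, which are plant hormones. Pinosylvin and resveratrol are plant stilbenes, and resveratrol carries an additional hydroxyl group on the ring that bears none in pinosylvin. Replicates 1 and 2 of every group were on the first slide and replicate 3 of every group on the second.

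When amino acids run short or other stresses arise, kinases phosphorylate the translation factor eIF2, general protein synthesis falls, and the mRNA of the transcription factor ATF4 is translated more. ATF4 pairs with C/EBP proteins on DNA and activates genes that make and import amino acids and load them onto tRNAs, together with genes that feed back on the stress response or on growth. In skeletal muscle this response is known from mitochondrial stress, fasting and atrophy, and some of its products are secreted. Because ATF4 is regulated largely at translation and protein stability, the RNA level of *Atf4* is not a measure of its protein, which was not measured here.

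A level below is log2 of the background-subtracted signal of a probe minus the 75th percentile of all probes on the same array, also in log2. A level of 0 therefore equals that percentile and a negative level lies below it, and levels of different probes cannot be compared. Levels are listed in the order of replicates 1, 2 and 3. A change is the difference between 2 group means of levels, with the standard error (SE) of the limma fit over all 12 arrays. Its p was adjusted by the Benjamini-Hochberg method over the 24278 probes tested, and a member is called higher or lower where the adjusted p is under 0.05. The comparisons with the control share the 3 control arrays, so they are given side by side and are not independent of each other.

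The cells were checked against lists of markers, each summed over its genes on the linear scale, where 1 is the 75th percentile of the array. The 12 myotube markers summed to 969.6, 1065 and 938 on the control arrays, 414, 399.7 and 385 with GR24, 1063, 1117 and 1031 with pinosylvin and 834, 890.4 and 805 with resveratrol. On the control arrays each of the 12 was well above background and the sum was lowest on the 3 GR24 arrays. A single gene, *Myh3*, held 42.6% to 58.5% of this sum on every array, so the 12 do not weigh equally in it. With GR24, 9 of the 12 were lower and 0 higher, with a median change of -1.79, which is -1.41 with *Myod1* at its bound. *Myod1*, a factor that commits cells to muscle, was not well above background on any GR24 array and was at least 3.21-fold lower there. It is among the 9 counted as lower, but it entered the tests through the control and pinosylvin arrays, where it is high. No p is therefore given for it. Here and below, such a bound sets each array without signal to the lowest signal that counted as well above background on it, and it holds for this background subtraction only. *Myog*, which drives the final steps of differentiation, changed by -5.83 (adjusted p = 5.53e-10). Pinosylvin raised 2 of the 12, *Myog* (0.73) and *Tnnt3* (0.54), and lowered 0, while resveratrol lowered 6 and raised 0. Of all probes, 57.1%, 16.6% and 17.0% were called in either direction with GR24, pinosylvin and resveratrol. The count of 6 was 3 without control replicate 2 or resveratrol replicate 3 and with dim probes kept, and 8 without control replicate 3, with the percentile over all spots and with a block for slide or for replicate number. With either block pinosylvin raised 5 and lowered 1. The pinosylvin call of *Myog* ended on slide 1 alone (adjusted p from 0.000193 to 0.0768 over its alternatives).

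Of 6 markers of cycling cells 5 were tested, and all 5 were lower with each compound, all well above background on the 12 arrays. With pinosylvin 4 of the 5 were called without control replicate 1 or pinosylvin replicate 1, with dim probes kept and with only the 6 arrays compared. Their summed signal was 93.8, 91.2 and 85.2 in the control, 28.6, 28.7 and 26.6 with GR24, 44.6, 45.8 and 43.5 with pinosylvin and 53.2, 55.8 and 50.7 with resveratrol. Of 6 markers of undifferentiated myoblasts 5 were tested, all but *Id3*, and their sum was 176, 179.5 and 160.2 in the control, 95.3, 97.1 and 86.9 with GR24, 127, 130.3 and 117 with pinosylvin and 113, 119 and 107 with resveratrol. *Vim*, a gene of the cytoskeleton, held 93.7% to 96.5% of this sum on every array, so the sum follows that gene, which changed by -0.91 (adjusted p = 3.45e-06) with GR24. *Id2* (1.22) and *Hes1* (0.65) were higher with GR24, *Hes1* by 0.23 on the second slide, and the median change of the 5 was 0.036. Among these 5, 2 were higher and 2 lower with GR24, 1 higher and 3 lower with pinosylvin, and 1 higher and 1 lower with resveratrol. The count of 3 was 2 without control replicate 1 or 2 or pinosylvin replicate 1 or 3, with dim probes kept, with only the 6 arrays compared and on slide 1 alone. These marker changes accompany the changes of the members given below, and their part in them was not tested. In RNA from whole cultures, fewer cells of a type and less RNA per cell cannot be told apart.

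GR24 changed most of the ATF4 amino acid stress genes, and more of them rose than fell. With GR24, 20 of the 33 members were higher and 5 lower than in the control, where 31.5% of all tested probes were higher and 25.5% lower. In either direction, 75.8% of the members and 57.1% of all probes were past the threshold. The GR24 and control arrays did not overlap for 26 members, and this held for 61.1% of all probes. The median change of the members was 0.40 and that of all probes 0.027. Within slides the members' median was 0.42 on the first and 0.43 on the second, which has 1 array per group. With the percentile taken over all spots in place of all probes, the median of all probes moved from 0.027 to 0.13 and that of the members to 0.50. In a fit that removes what arrays of the same replicate number share, GR24 also raised *Sesn2* and lowered *Chac1* and *Phgdh*. There 36.2% of all probes were higher and 30.3% lower.

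Pinosylvin and resveratrol changed fewer members, again mostly upward. With pinosylvin, 10 members were higher and 1 lower, where 8.28% and 8.27% of all probes were. In either direction 33.3% of the members and 16.6% of all probes were called, and 14 members had no overlap between the groups, against 32.7% of all probes. The median change was 0.17 for the members and 0.054 for all probes. It was 0.11 on the first slide and 0.23 on the second, and 0.11 without control replicate 3. The count of 10 fell to 6 without control replicate 1, control replicate 3 or pinosylvin replicate 2, and to 4 without pinosylvin replicate 1. In a fit with the replicate number as a block, which removes what arrays of the same number share, 14 members were higher and 2 lower, where 16.3% and 12.3% of all probes were.

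With resveratrol, 13 members were higher and 1 lower, where 7.99% and 8.99% of all probes were. In either direction 42.4% of the members and 17.0% of all probes were called, and 19 members had no overlap between the groups, against 33.1% of all probes. The median change was 0.27 for the members and 0.010 for all probes, and the members' median was 0.28 on the first slide and 0.30 on the second. The 1 lower member was *Stc2*, and the count of lower members was 0 without control replicate 1 or 2, pinosylvin replicate 1, or any resveratrol replicate, and 2 without control replicate 3. When replicates were blocked, 18 members were higher and 3 lower, where 14.1% and 13.8% of all probes were.

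**Figure D1:**
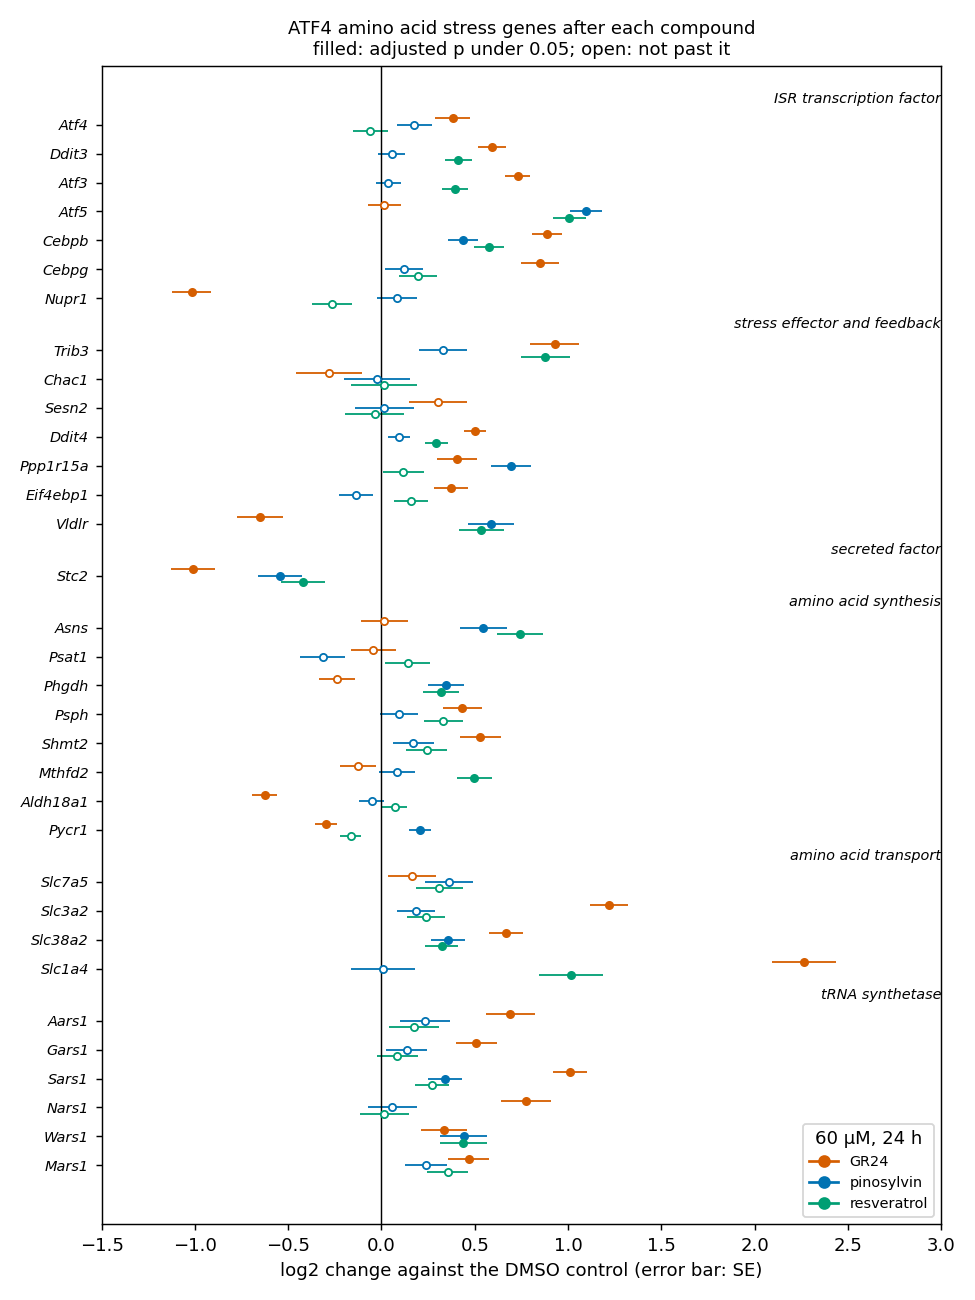
Change in level (log2, fitted mean of 3 arrays minus that of 3 control arrays, bars are SE) of the 33 tested members, grouped by role, with each compound. Filled points are past the threshold. With GR24 the changes run from -1.02 for *Nupr1* to 2.26 for *Slc1a4*, and all 6 tRNA synthetases lie above 0.

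The 7 transcription factors among the members include ATF4 itself, its partners and factors that it induces. With GR24, 5 were higher and 1 lower, at a median change of 0.59. With pinosylvin 2 were higher and 0 lower (median 0.12), and with resveratrol 4 were higher and 0 lower (median 0.39). Called in either direction were 85.7%, 28.6% and 57.1% of them with GR24, pinosylvin and resveratrol. The shares of all probes were 57.1%, 16.6% and 17.0%. *Atf4* had levels of 5.77, 5.83 and 5.56 in the control, 6.16, 6.17 and 5.97 with GR24, 5.92, 5.86 and 5.90 with pinosylvin and 5.81, 5.63 and 5.55 with resveratrol. All 3 GR24 arrays were above all control arrays, all 3 pinosylvin arrays were slightly above them, and the resveratrol arrays overlapped them. *Atf4* changed by 0.38 (SE 0.0944, adjusted p = 0.00528) with GR24. Its difference from the control was 0.18 (95% interval -0.035 to 0.38, adjusted p = 0.254) with pinosylvin and -0.059 (95% interval -0.27 to 0.15, adjusted p = 0.769) with resveratrol.

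*Ddit3* encodes CHOP, a factor linked to cell death under prolonged stress. Its levels were 3.74, 3.89 and 3.78 in the control, 4.43, 4.45 and 4.31 with GR24, 3.90, 3.82 and 3.86 with pinosylvin and 4.32, 4.15 and 4.18 with resveratrol. Every GR24 and every resveratrol array was above every control array, while the pinosylvin arrays overlapped the control. The change was 0.59 (SE 0.0725, adjusted p = 4.8e-05) with GR24, 0.41 (SE 0.0725, adjusted p = 0.00323) with resveratrol and 0.054 (95% interval -0.11 to 0.21, adjusted p = 0.702) with pinosylvin. *Atf3*, a stress-induced factor of the same family as ATF4, changed by 0.73 (adjusted p = 6.19e-06) with GR24 and 0.39 (adjusted p = 0.00284) with resveratrol. With pinosylvin its difference was 0.037 (adjusted p = 0.793).

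*Atf5*, a relative of *Atf4* that responds to protein stress in mitochondria, set the stilbenes apart from GR24. It had levels of 3.83, 3.82 and 3.65 in the control and 3.79, 3.75 and 3.80 with GR24. On the pinosylvin arrays they were 4.96, 4.86 and 4.77, and on the resveratrol arrays 4.92, 4.75 and 4.65. All 6 stilbene arrays were above all 6 others, and the GR24 arrays lay within the control range. The change was 1.10 (SE 0.0864, adjusted p = 1.55e-05) with pinosylvin and 1.01 (SE 0.0864, adjusted p = 4.61e-05) with resveratrol, and the difference with GR24 was 0.016 (95% interval -0.18 to 0.21, adjusted p = 0.898).

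The C/EBP proteins pair with ATF4 on DNA. *Cebpb* had levels of 2.03, 2.21 and 2.06 in the control, 2.94, 3.08 and 2.95 with GR24, 2.53, 2.45 and 2.64 with pinosylvin and 2.76, 2.62 and 2.65 with resveratrol. All treated arrays were above all control arrays, and the GR24 arrays were above all others. The change was 0.89 (SE 0.0797, adjusted p = 4.89e-06) with GR24, 0.44 (adjusted p = 0.00406) with pinosylvin and 0.58 (adjusted p = 0.000785) with resveratrol. The call with pinosylvin ended on slide 1 alone (adjusted p from 0.00243 to 0.0556 over its alternatives), and a second *Cebpb* probe gave 0.30 (adjusted p = 0.238) there. *Cebpg*, a partner that dimerizes with ATF4, changed by 0.85 (adjusted p = 4.69e-05) with GR24. It gave 0.12 (adjusted p = 0.503) with pinosylvin and 0.20 (adjusted p = 0.247) with resveratrol, where the adjusted p was 0.0189 in the blocked fit.

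*Nupr1*, a small stress-induced chromatin protein, was the transcription factor that fell with GR24. Its levels were 6.49, 6.56 and 6.26 in the control, 5.48, 5.49 and 5.28 with GR24, 6.58, 6.58 and 6.40 with pinosylvin and 6.28, 6.22 and 6.01 with resveratrol. The 3 GR24 arrays were below all other arrays. The change was -1.02 (SE 0.106, adjusted p = 1.5e-05) with GR24, 0.082 (adjusted p = 0.688) with pinosylvin and -0.27 (adjusted p = 0.122) with resveratrol. After blocking on the replicate number, the resveratrol difference had an adjusted p of 0.00361 and was called lower.

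The 7 stress effectors and feedback genes act on signalling, translation, redox state or growth downstream of ATF4. With GR24 4 were higher and 1 lower (median 0.37), with pinosylvin 2 higher and 0 lower (median 0.093), and with resveratrol 3 higher and 0 lower (median 0.16). These are 71.4%, 28.6% and 42.9% of the 7, where 57.1%, 16.6% and 17.0% of all probes were called. *Trib3*, a pseudokinase that restrains ATF4, CHOP and the kinase AKT, had levels of -1.91, -1.66 and -1.98 in the control and -0.82, -0.88 and -1.07 with GR24. They were -1.40, -1.45 and -1.71 with pinosylvin and -0.80, -0.94 and -1.18 with resveratrol. The GR24 and resveratrol arrays overlapped each other above all control arrays, and the lowest pinosylvin array lay inside the control range. *Trib3* changed by 0.93 (SE 0.129, adjusted p = 0.000123) with GR24 and 0.88 (SE 0.129, adjusted p = 0.00114) with resveratrol. With pinosylvin the difference was 0.33 (95% interval 0.043 to 0.62, adjusted p = 0.115), and in the blocked fit it was called higher (adjusted p = 0.0122).

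*Ppp1r15a* encodes GADD34, which guides a phosphatase to eIF2 and so restores translation. Its levels were 3.26, 3.24 and 2.92 in the control, 3.64, 3.55 and 3.45 with GR24, 3.88, 3.84 and 3.78 with pinosylvin and 3.41, 3.27 and 3.10 with resveratrol. The pinosylvin arrays were above all others, the GR24 arrays were above all control arrays, and the resveratrol arrays overlapped the control. The change was 0.69 (SE 0.109, adjusted p = 0.00167) with pinosylvin, 0.40 (adjusted p = 0.00861) with GR24 and 0.12 (95% interval -0.12 to 0.36, adjusted p = 0.552) with resveratrol.

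*Vldlr* encodes a lipoprotein receptor. Its levels were -1.63, -1.95 and -1.70 in the control, -2.30, -2.43 and -2.49 with GR24, -0.96, -1.31 and -1.24 with pinosylvin and -1.25, -1.05 and -1.36 with resveratrol. All GR24 arrays were below and all stilbene arrays above every control array. The change was -0.65 (SE 0.122, adjusted p = 0.000983) with GR24, 0.59 (adjusted p = 0.00854) with pinosylvin and 0.54 (adjusted p = 0.0134) with resveratrol, where the second slide gave 0.34. The call with resveratrol ended without control replicate 2, or resveratrol replicate 2 (adjusted p from 0.00347 to 0.0545 over its alternatives). A second probe, for another RefSeq transcript of *Vldlr*, gave -0.071 (adjusted p = 0.535) with GR24, so the decrease was not called there, and was higher with pinosylvin (0.85) and resveratrol (0.49).

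Of the other effectors, *Ddit4*, an inhibitor of the growth kinase complex mTORC1, changed by 0.50 (adjusted p = 4.47e-05) with GR24 and 0.29 (adjusted p = 0.00795) with resveratrol. The resveratrol call was absent from its second probe (adjusted p = 0.322) and ended with the mean over the probes of the gene (adjusted p from 0.0015 to 0.0781 over its alternatives). *Eif4ebp1*, which encodes a repressor of cap-dependent translation, changed by 0.37 (adjusted p = 0.00506) with GR24 and gave -0.14 (adjusted p = 0.362) with pinosylvin and 0.16 (adjusted p = 0.296) with resveratrol. On the second slide its GR24 value was 0.24. *Sesn2*, a leucine sensor upstream of mTORC1, and *Chac1*, which degrades glutathione, were not called with any compound. In the blocked fit, GR24 raised *Sesn2* (0.30, adjusted p = 0.0462) and lowered *Chac1* (-0.28, adjusted p = 0.0239).

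Of the members that encode secreted factors only *Stc2* was measurable. Stanniocalcin 2 is a secreted glycoprotein that also acts within the stressed secretory pathway. Its levels were 0.24, 0.34 and -0.092 in the control, -0.71, -0.95 and -0.88 with GR24, -0.41, -0.24 and -0.49 with pinosylvin and -0.17, -0.28 and -0.31 with resveratrol. Every treated array was below every control array, and the GR24 arrays were the lowest. The change was -1.01 (SE 0.117, adjusted p = 3.3e-05) with GR24, -0.54 (adjusted p = 0.0103) with pinosylvin and -0.42 (adjusted p = 0.034) with resveratrol, where the second slide gave -0.22. For pinosylvin, the call ended with only the 6 arrays compared (adjusted p from 0.00228 to 0.0586 over its alternatives). For resveratrol, the call ended without control replicate 1 or 2, pinosylvin replicate 1, or resveratrol replicate 1, 2 or 3, with dim probes kept and with only the 6 arrays compared (adjusted p from 0.00606 to 0.119 over its alternatives).

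Of the 8 enzymes of amino acid and one-carbon synthesis, those called went in both directions with GR24 and upward with the stilbenes. With GR24, 2 were higher and 2 lower (median -0.084), with pinosylvin 3 were higher and 0 lower (median 0.13), and with resveratrol 3 were higher and 0 lower (median 0.28). Of all probes, 57.1%, 16.6% and 17.0% were called with GR24, pinosylvin and resveratrol, so with GR24 the 8 enzymes had a smaller share called than all probes. *Asns*, the enzyme that makes asparagine and a standard reporter of this response, had levels of 2.05, 2.06 and 1.91 in the control and 2.13, 2.16 and 1.78 with GR24. They were 2.71, 2.56 and 2.39 with pinosylvin and 2.81, 2.85 and 2.58 with resveratrol. All stilbene arrays were above all control and GR24 arrays, and the GR24 arrays spanned the control range. *Asns* changed by 0.55 (SE 0.124, adjusted p = 0.0132) with pinosylvin and 0.74 (SE 0.124, adjusted p = 0.00244) with resveratrol. The pinosylvin call ended without pinosylvin replicate 1 (adjusted p from 0.000151 to 0.055 over its alternatives). With GR24 the difference was 0.016 (95% interval -0.26 to 0.29, adjusted p = 0.932).

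*Phgdh*, *Psat1* and *Psph* encode the successive enzymes of serine synthesis. *Phgdh*, which takes the first step, had levels of 4.71, 4.78 and 4.53 in the control, 4.50, 4.48 and 4.33 with GR24, 5.15, 4.99 and 4.92 with pinosylvin and 5.13, 4.96 and 4.89 with resveratrol. The GR24 arrays were below and the stilbene arrays above every control array. The change was 0.35 (SE 0.0963, adjusted p = 0.0335) with pinosylvin and 0.32 (SE 0.0963, adjusted p = 0.0454) with resveratrol. The call with pinosylvin ended without control replicate 1 or 3, or pinosylvin replicate 1 or 2, with dim probes kept, with only the 6 arrays compared and on slide 1 alone (adjusted p from 0.00228 to 0.121 over its alternatives). The resveratrol call ended without control replicate 1, 2 or 3, GR24 replicate 1 or 2, pinosylvin replicate 2, or resveratrol replicate 1, 2 or 3, with dim probes kept, with only the 6 arrays compared and on slide 1 alone (adjusted p from 0.00343 to 0.155 over its alternatives). With GR24 the difference was -0.24 (adjusted p = 0.0578), called lower in the blocked fit (adjusted p = 0.00541). *Psat1* was not called against the control with any compound, at -0.043 with GR24, -0.32 with pinosylvin and 0.14 with resveratrol. In the blocked fit it was lower with pinosylvin (adjusted p = 0.0201). *Psph* rose with GR24 by 0.43 (adjusted p = 0.00425), and gave 0.33 (adjusted p = 0.0526) with resveratrol and 0.093 (adjusted p = 0.625) with pinosylvin. The GR24 value of *Psph* was 0.25 on the second slide.

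*Shmt2* and *Mthfd2* encode mitochondrial enzymes that turn serine into glycine and one-carbon units. *Shmt2* had levels of 1.87, 2.05 and 1.66 in the control, 2.50, 2.43 and 2.24 with GR24, 2.10, 2.04 and 1.95 with pinosylvin and 2.23, 2.09 and 2.00 with resveratrol. The GR24 arrays were above all other arrays, and it changed by 0.53 (SE 0.11, adjusted p = 0.00189) with GR24. With pinosylvin the difference was 0.17 (adjusted p = 0.352), and with resveratrol 0.24 (adjusted p = 0.177), where the adjusted p was 0.0337 in the blocked fit. *Mthfd2* had levels of 2.35, 2.42 and 2.27 in the control, 2.31, 2.36 and 1.98 with GR24, 2.50, 2.37 and 2.41 with pinosylvin and 2.85, 2.87 and 2.80 with resveratrol. The resveratrol arrays were above all others, and the GR24 and the pinosylvin arrays each overlapped the control. It changed by 0.50 (SE 0.0961, adjusted p = 0.00544) with resveratrol and gave -0.13 (95% interval -0.34 to 0.088, adjusted p = 0.301) with GR24 and 0.082 (95% interval -0.13 to 0.30, adjusted p = 0.646) with pinosylvin.

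*Aldh18a1* and *Pycr1* encode enzymes of proline synthesis. *Aldh18a1* had levels of 2.12, 2.09 and 2.18 in the control, 1.55, 1.53 and 1.43 with GR24, 2.17, 2.05 and 2.02 with pinosylvin and 2.22, 2.25 and 2.13 with resveratrol. The GR24 arrays were below all others, and the stilbene arrays overlapped the control. The change was -0.63 (SE 0.0672, adjusted p = 1.81e-05) with GR24, and the difference was -0.051 (95% interval -0.20 to 0.10, adjusted p = 0.691) with pinosylvin and 0.071 (95% interval -0.078 to 0.22, adjusted p = 0.559) with resveratrol. *Pycr1* changed by -0.30 (adjusted p = 0.00118) with GR24 and 0.21 (adjusted p = 0.0338) with pinosylvin. The GR24 value was -0.19 in the deposited series table and -0.20 with the percentile over all spots. With resveratrol it gave -0.17 (adjusted p = 0.0775), called lower in the blocked fit (adjusted p = 0.0209). For pinosylvin, the call ended without control replicate 1 or 3, GR24 replicate 1, or pinosylvin replicate 1, 2 or 3, with dim probes kept, with only the 6 arrays compared, on slide 1 alone and with the mean over the probes of the gene (adjusted p from 0.00507 to 0.572 over its alternatives). A second *Pycr1* probe, for another transcript, was not called in any comparison.

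The 4 amino acid transport genes included *Slc1a4* and *Slc3a2*, the 2 members with the largest increases with GR24. With GR24 3 were higher and 0 lower (median 0.94), with pinosylvin 1 higher and 0 lower (median 0.27), and with resveratrol 2 higher and 0 lower (median 0.32). In either direction, 57.1%, 16.6% and 17.0% of all probes were called with GR24, pinosylvin and resveratrol. *Slc1a4*, which encodes a carrier of neutral amino acids such as serine and alanine, had levels of -2.96, -3.06 and -3.58 in the control and -0.91, -0.80 and -1.09 with GR24. They were -3.13, -2.98 and -3.46 with pinosylvin and -2.09, -2.14 and -2.32 with resveratrol. The GR24 arrays were highest, the resveratrol arrays came next, both above all control arrays, and the pinosylvin arrays lay within the control range. *Slc1a4* changed by 2.26 (SE 0.173, adjusted p = 1.44e-06) with GR24, which is 4.8-fold, and by 1.02 (SE 0.173, adjusted p = 0.00269) with resveratrol, where normexp background correction gave 0.60. With pinosylvin the difference was 0.0066 (95% interval -0.38 to 0.39, adjusted p = 0.99).

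*Slc3a2* and *Slc7a5* encode the heavy and light chains of a transporter of large neutral amino acids. *Slc3a2* had levels of 2.95, 2.88 and 2.68 in the control, 4.14, 4.09 and 3.92 with GR24, 3.10, 3.05 and 2.90 with pinosylvin and 3.19, 3.11 and 2.93 with resveratrol. The GR24 arrays were above all others, and the stilbene arrays overlapped the control. The change was 1.22 (SE 0.102, adjusted p = 2.88e-06) with GR24. With pinosylvin it was 0.18 (adjusted p = 0.268) and with resveratrol 0.24 (adjusted p = 0.146), both called higher in the blocked fit (adjusted p = 0.0109 and 0.0032). *Slc7a5* was not called with any compound, at 0.16 (adjusted p = 0.31) with GR24, 0.36 (adjusted p = 0.0856) with pinosylvin and 0.31 (adjusted p = 0.134) with resveratrol. With the block the pinosylvin value was called higher (adjusted p = 0.0325).

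*Slc38a2* encodes SNAT2, a sodium-coupled carrier that muscle cells increase when amino acids are scarce. Its levels were 4.33, 4.34 and 4.40 in the control, 5.08, 5.16 and 4.83 with GR24, 4.69, 4.64 and 4.81 with pinosylvin and 4.61, 4.71 and 4.72 with resveratrol. All treated arrays were above all control arrays, and the GR24 arrays were above all stilbene arrays. The change was 0.67 (SE 0.0897, adjusted p = 9.51e-05) with GR24, 0.36 (adjusted p = 0.0217) with pinosylvin and 0.32 (adjusted p = 0.0329) with resveratrol. On the second slide the GR24 value was 0.43. GR24 differed from pinosylvin by 0.31 (adjusted p = 0.0129) and from resveratrol by 0.34 (adjusted p = 0.00828), which were 0.015 and 0.11 on the second slide. The call against pinosylvin ended without GR24 replicate 2, or pinosylvin replicate 2 and with only the 6 arrays compared (adjusted p from 0.00138 to 0.0547 over its alternatives). The pinosylvin call ended without control replicate 1 or 2, or pinosylvin replicate 1 or 3 and with dim probes kept (adjusted p from 0.00651 to 0.0801 over its alternatives). The call with resveratrol ended without control replicate 1, 2 or 3, or resveratrol replicate 1, 2 or 3 and with dim probes kept (adjusted p from 0.0104 to 0.107 over its alternatives).

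The 6 tRNA synthetases, which join an amino acid to its tRNA in the cytosol, all rose with GR24. Their changes with GR24 ran from 0.33 to 1.01, with a median of 0.60. With pinosylvin 2 were higher and 0 lower (median 0.24), and with resveratrol 1 was higher and 0 lower (median 0.22). The share called was thus 100% with GR24, 33.3% with pinosylvin and 16.7% with resveratrol. Of all probes it was 57.1%, 16.6% and 17.0%, so the resveratrol count is near that of all probes. *Sars1*, for serine, had levels of 1.81, 1.82 and 1.63 in the control, 2.83, 2.74 and 2.73 with GR24, 2.17, 2.15 and 1.96 with pinosylvin and 2.15, 2.04 and 1.89 with resveratrol. All treated arrays were above all control arrays, and all GR24 arrays were above all stilbene arrays. The change was 1.01 (SE 0.0903, adjusted p = 4.61e-06) with GR24 and 0.34 (adjusted p = 0.0273) with pinosylvin. The call with pinosylvin ended without control replicate 1 or 3, or pinosylvin replicate 1 or 2, with dim probes kept and with only the 6 arrays compared (adjusted p from 0.00147 to 0.0971 over its alternatives). With resveratrol the difference was 0.27 (adjusted p = 0.0674), called higher in the blocked fit (adjusted p = 0.00603).

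*Nars1*, for asparagine, had levels of 0.28, 0.38 and 0.59 in the control, 1.07, 1.23 and 1.27 with GR24, 0.36, 0.34 and 0.72 with pinosylvin and 0.43, 0.25 and 0.62 with resveratrol. The GR24 arrays were above all others, and the stilbene arrays overlapped the control. It changed by 0.77 (SE 0.132, adjusted p = 0.000506) with GR24, and the difference was 0.057 (95% interval -0.24 to 0.35, adjusted p = 0.842) with pinosylvin and 0.015 (95% interval -0.28 to 0.31, adjusted p = 0.967) with resveratrol. *Wars1*, for tryptophan, had levels of 5.25, 5.15 and 4.94 in the control, 5.51, 5.53 and 5.30 with GR24, 5.76, 5.55 and 5.35 with pinosylvin and 5.68, 5.59 and 5.40 with resveratrol. All treated arrays were above all control arrays, with the compounds overlapping each other. It changed by 0.33 (adjusted p = 0.0415) with GR24, 0.44 (adjusted p = 0.0372) with pinosylvin and 0.44 (adjusted p = 0.037) with resveratrol.

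The *Wars1* calls were the least stable of the group. The GR24 call ended without control replicate 2 or 3, GR24 replicate 1 or 2, pinosylvin replicate 2, or resveratrol replicate 2, with normexp background correction and with dim probes kept (adjusted p from 0.000506 to 0.144 over its alternatives). For pinosylvin, the call ended without control replicate 2 or 3, GR24 replicate 1, pinosylvin replicate 1 or 2, or resveratrol replicate 2, with normexp background correction, in the deposited series table, with dim probes kept and with only the 6 arrays compared (adjusted p from 0.000574 to 0.131 over its alternatives). For resveratrol, the call ended without control replicate 2 or 3, GR24 replicate 1, pinosylvin replicate 2, or resveratrol replicate 1 or 2, with dim probes kept and with only the 6 arrays compared (adjusted p from 0.000601 to 0.125 over its alternatives). A second *Wars1* probe was higher with all 3 compounds, by 0.72, 0.72 and 0.50 with GR24, pinosylvin and resveratrol. *Aars1*, *Gars1* and *Mars1*, for alanine, glycine and methionine, changed by 0.69, 0.51 and 0.47 with GR24 and were not called with the stilbenes. *Mars1* gave 0.24 (adjusted p = 0.182) with pinosylvin and 0.35 (adjusted p = 0.0536) with resveratrol, both called higher in the blocked fit (adjusted p = 0.00735 and 0.00111).

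For comparison, 14 of 17 mitochondrial tRNA synthetases were tested, which are encoded by separate genes. With GR24 7 were higher and 0 lower, with changes from -0.014 to 1.20 and a median of 0.26. With pinosylvin 1 was higher and 2 lower (from -0.43 to 0.36), and with resveratrol 2 were higher and 0 lower (from -0.24 to 0.42). Of all probes, 31.5% were higher and 25.5% lower with GR24, 8.28% and 8.27% with pinosylvin, and 7.99% and 8.99% with resveratrol. The difference between the cytosolic members and the mitochondrial genes was not tested.

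**Figure D2:**
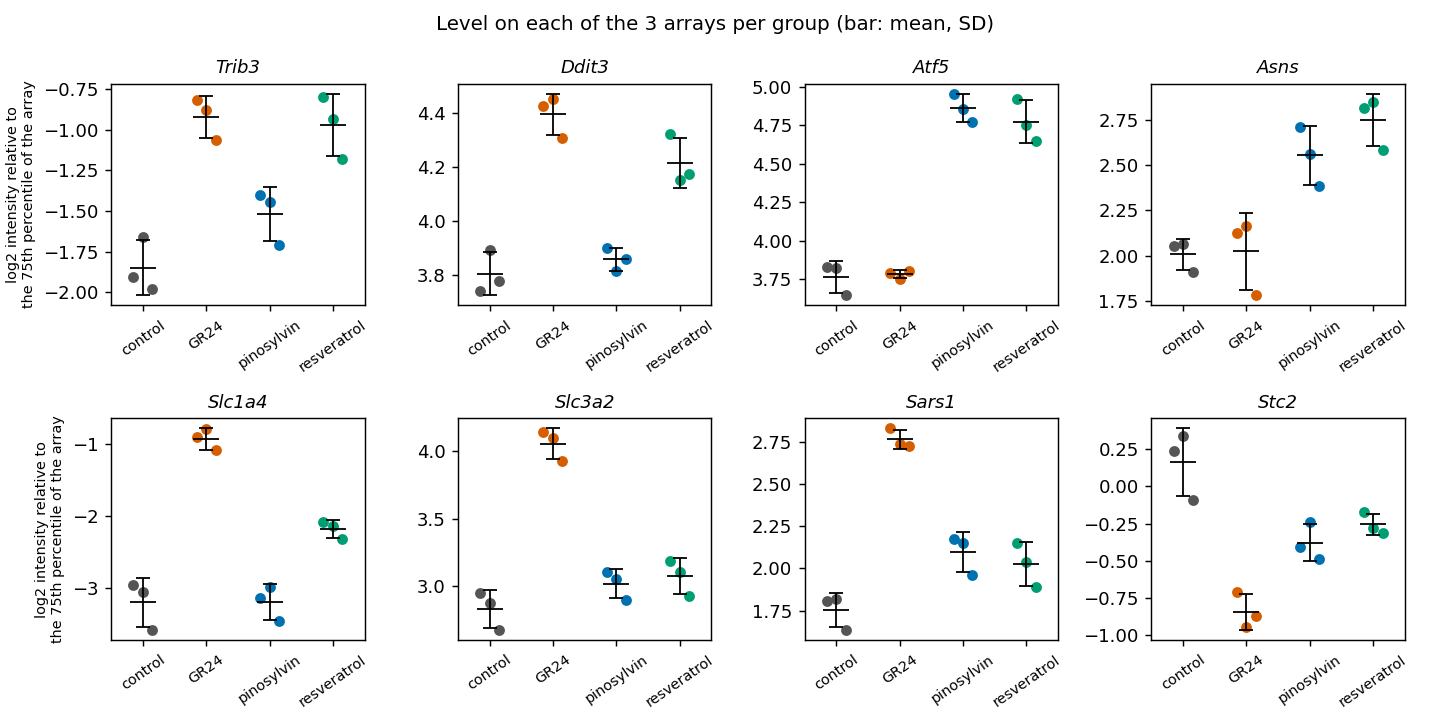
Level (log2, relative to the array's 75th percentile) on each of the 12 arrays for 8 members, by group, with the mean and SD of 3 arrays. *Atf5* and *Asns* are high with pinosylvin and resveratrol and near the control with GR24, and *Slc3a2* is high with GR24, at 4.14, 4.09 and 3.92 against 2.95, 2.88 and 2.68 in the control.

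GR24 and the stilbenes were compared directly at the same dose and time. Against pinosylvin, 16 members were higher with GR24 and 9 lower, where 29.6% and 26.8% of all probes were. In either direction 75.8% of the members and 56.4% of all probes were called, and 28 members had no overlap, against 62.5% of all probes. The median difference was 0.29 for the members and -0.0030 for all probes, and the members' median was 0.33 on the first slide and 0.15 on the second. Against resveratrol, 13 were higher with GR24 and 8 lower, where 27.4% and 23.9% of all probes were. In either direction 63.6% of the members and 51.4% of all probes were called, and 25 had no overlap, against 58.6% of all probes. The median difference was 0.18 for the members and 0.024 for all probes, and the members' median was 0.20 on the first slide and 0.12 on the second.

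By role the counts were as follows, and the difference between roles was not tested. The shares of all probes are those given above. Of the 7 transcription factors, 4 were higher and 2 lower with GR24 than with either stilbene. Of the 7 effectors, 3 were higher and 2 lower than with pinosylvin, and 2 higher and 1 lower than with resveratrol. The *Ppp1r15a* calls, lower against pinosylvin and higher against resveratrol, ended without any 1 of 6 and of 9 arrays. *Stc2* was lower with GR24 than with either stilbene. Of the 6 tRNA synthetases, 4 were higher with GR24 than with either stilbene and 0 lower, and of the 4 transport genes, 3 were higher and 0 lower. Against pinosylvin the *Aars1* call, at 0.46 (adjusted p = 0.0132), ended without pinosylvin replicate 3 (adjusted p from 0.00135 to 0.0503 over its alternatives). The largest of these differences was for *Slc1a4*, 2.26 (SE 0.173, adjusted p = 1.69e-06) against pinosylvin and 1.25 (SE 0.173, adjusted p = 0.000146) against resveratrol. *Slc3a2* differed by 1.03 (adjusted p = 1.1e-05) and 0.98 (adjusted p = 2.04e-05). Of the 8 synthesis enzymes, 2 were higher and 4 lower with GR24 than with pinosylvin, and 0 higher and 4 lower than with resveratrol. The 2 higher were *Shmt2*, by 0.36 (adjusted p = 0.0175), and *Psph*, by 0.34 (adjusted p = 0.0161), which was 0.028 on the second slide. The *Shmt2* call ended without GR24 replicate 1 or 2, or pinosylvin replicate 3 and with dim probes kept (adjusted p from 0.000979 to 0.0682 over its alternatives), and the *Psph* call without GR24 replicate 2, or pinosylvin replicate 2 (adjusted p from 0.00325 to 0.0668 over its alternatives). *Asns* differed by -0.53 (adjusted p = 0.00402) from pinosylvin and -0.73 (adjusted p = 0.00063) from resveratrol, and *Phgdh* by -0.58 (adjusted p = 0.000434) and -0.56 (adjusted p = 0.000674). With GR24 *Atf5* was lower, differing from pinosylvin by -1.08 (SE 0.0864, adjusted p = 2.34e-06) and from resveratrol by -0.99 (SE 0.0864, adjusted p = 5.5e-06). *Vldlr* differed by -1.24 (adjusted p = 1.11e-05) and -1.19 (adjusted p = 1.88e-05). Second probes gave another call in 3 genes. For *Ddit4*, GR24 was higher, with differences of 0.41 (adjusted p = 0.000213) from pinosylvin and 0.21 (adjusted p = 0.0151) from resveratrol, where the second probe gave 0.33 (adjusted p = 0.112) and 0.22 (adjusted p = 0.289), and the call against resveratrol ended without resveratrol replicate 1, with dim probes kept and with the mean over the probes of the gene (adjusted p from 0.000453 to 0.0951 over its alternatives). The *Ddit4* difference from resveratrol was 0.32 with the percentile over all spots. For *Mthfd2*, GR24 gave -0.21 (adjusted p = 0.0913) against pinosylvin, where the second probe was called lower (-0.31, adjusted p = 0.00763). For *Pycr1*, GR24 gave -0.50 (adjusted p = 3.13e-05) against pinosylvin, where the second probe gave -0.32 (adjusted p = 0.223). For *Trib3*, GR24 differed from pinosylvin by 0.60 (adjusted p = 0.00252) and from resveratrol by 0.049 (95% interval -0.24 to 0.34, adjusted p = 0.794).

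The blocked fit gave more calls between GR24 and the stilbenes, among all probes as well as among the members. Against pinosylvin 19 members were then higher with GR24 and 11 lower, where 34.2% and 32.3% of all probes were. Against resveratrol 17 were higher and 10 lower, where 32.7% and 28.5% of all probes were. Against pinosylvin the gained calls were *Atf4* (0.21, adjusted p = 0.0258), *Mars1* (0.23, adjusted p = 0.00293) and *Psat1* (0.27, adjusted p = 0.0151) as higher, and *Chac1* (-0.26, adjusted p = 0.0347) and *Mthfd2* (-0.21, adjusted p = 0.0402) as lower. Against resveratrol they were *Shmt2* (0.29, adjusted p = 0.00667), *Sesn2* (0.34, adjusted p = 0.0323), *Eif4ebp1* (0.21, adjusted p = 0.0361) and *Ddit3* (0.18, adjusted p = 0.0427) as higher, and *Chac1* (-0.29, adjusted p = 0.0213) and *Pycr1* (-0.13, adjusted p = 0.0253) as lower. The counts by role above therefore do not hold in the blocked fit for the tRNA synthetases against pinosylvin. Nor do they hold there for the transcription factors, the effectors or the synthesis enzymes against either stilbene.

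Pinosylvin and resveratrol, which differ by the hydroxyl group named above, were compared for the 33 members at the same dose and time, with p adjusted over all tested probes. With resveratrol 6 members were higher and 2 lower than with pinosylvin, where 6.85% and 7.68% of all probes were. In either direction 24.2% of the members and 14.5% of all probes were called, and 12 had no overlap, against 33.5% of all probes. These 12 of 33 are near the share of all probes, so they are not read as a result about the members. The median difference was 0.056 for the members and -0.022 for all probes. The members' median was 0.070 on the first slide and 0.043 on the second, 0.0025 without resveratrol replicate 1, 0.10 without pinosylvin replicate 1 and 0.13 without resveratrol replicate 3. Without resveratrol replicate 2 the count of higher members was 3. When replicates were blocked 9 were higher and 4 lower, where 11.6% and 14.4% of all probes were.

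The members higher with resveratrol than with pinosylvin were *Slc1a4*, *Trib3*, *Psat1*, *Mthfd2*, *Ddit3* and *Atf3*. *Slc1a4* differed by 1.01 (SE 0.173, adjusted p = 0.00348), with every resveratrol array above every pinosylvin array, and by 0.59 with normexp background correction. *Ddit3* differed by 0.36 (SE 0.0725, adjusted p = 0.00841) and *Atf3* by 0.36 (SE 0.0677, adjusted p = 0.00595). *Trib3* differed by 0.55 (SE 0.129, adjusted p = 0.0186), a call that ended without pinosylvin replicate 3, or resveratrol replicate 1 or 2, with dim probes kept and with only the 6 arrays compared (adjusted p from 0.000596 to 0.0663 over its alternatives). *Mthfd2* differed by 0.42 (SE 0.0961, adjusted p = 0.0167), which was 0.13 and not called for its second probe, and the call ended without pinosylvin replicate 2, or resveratrol replicate 2 and with dim probes kept (adjusted p from 0.00282 to 0.0664 over its alternatives). *Psat1* differed by 0.46 (SE 0.122, adjusted p = 0.0325), a call that ended without pinosylvin replicate 1, 2 or 3, or resveratrol replicate 1 or 2 and with dim probes kept (adjusted p from 0.00243 to 0.104 over its alternatives). The members lower with resveratrol were *Ppp1r15a*, at -0.58 (SE 0.109, adjusted p = 0.00592), and *Pycr1*, at -0.37 (SE 0.0576, adjusted p = 0.00195).

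For the other 25 members no difference between the stilbenes was called, and a p that misses the threshold does not show that they act alike. For *Atf5* the 95% interval of resveratrol minus pinosylvin was -0.28 to 0.10, for *Vldlr* -0.32 to 0.22, for *Stc2* -0.14 to 0.38 and for *Slc38a2* -0.23 to 0.17. The second *Vldlr* probe was called lower with resveratrol (-0.36, adjusted p = 0.0231). The interval was -0.080 to 0.47 for *Asns* and -0.24 to 0.19 for *Phgdh*. Of the 6 tRNA synthetases 0 were called in either direction, with differences from -0.070 to 0.11. After blocking on the replicate number, *Nupr1* (-0.35, adjusted p = 0.00123) and *Atf4* (-0.23, adjusted p = 0.0381) were lower with resveratrol. *Eif4ebp1* (0.30, adjusted p = 0.0233), *Ddit4* (0.20, adjusted p = 0.0145) and *Asns* (0.20, adjusted p = 0.0479) were higher.

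Of 64 other genes of the pathway 55 were tested. With GR24 25 were higher and 6 lower (median 0.21), with pinosylvin 10 higher and 4 lower (median 0.053), and with resveratrol 9 higher and 3 lower (median 0.10). With *Gdf15* at the bounds given below for GR24 and resveratrol, the medians with these compounds were the same. In either direction 56.4%, 25.5% and 21.8% of the 55 were called with GR24, pinosylvin and resveratrol, where 57.1%, 16.6% and 17.0% of all probes were, and these shares of all probes apply to each list that follows. Of 10 genes for the eIF2 kinases, eIF2 and its phosphatase, GR24 raised 5 and lowered 0, pinosylvin raised 0 and lowered 1, and resveratrol changed 0. Of 14 other cytosolic tRNA synthetases, GR24 raised 8 and lowered 1, pinosylvin raised 1 and lowered 0, and resveratrol raised 2 and lowered 0. Of 7 other amino acid transporters, GR24 raised 4 and lowered 1, pinosylvin raised 1 and lowered 3, and resveratrol raised 2 and lowered 1. Of 10 other enzymes of amino acid and one-carbon metabolism, GR24 raised 2 and lowered 1, pinosylvin raised 3 and lowered 0, and resveratrol raised 0 and lowered 1. Of 14 other targets and partners of the response, GR24 raised 6 and lowered 3, pinosylvin raised 5 and lowered 0, and resveratrol raised 5 and lowered 1.

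The secreted stress hormone *Gdf15* was well above background on 0 of the 3 control arrays, 3 GR24 arrays, 1 pinosylvin array and 3 resveratrol arrays. As a bound, it was at least 6.36-fold higher with GR24 and at least 3.09-fold higher with resveratrol. The resveratrol call ended with normexp background correction. *Gdf15* entered the tests through the GR24 and resveratrol arrays only, where it is high, so no p is given for these changes. With pinosylvin no fold or p is given, since neither group was well above background as a whole. It is among the 10 counted as higher with pinosylvin, but that call is not read as a result. The call ended without control replicate 2 or 3, or pinosylvin replicate 1 or 2. It also ended with quantile normalization, with normexp background correction, in the deposited series table, with dim probes kept and on slide 1 alone. After *Gdf15*, the largest increase with GR24 was that of the glycine transporter gene *Slc6a9*, by 2.44 (SE 0.0847, adjusted p = 5.07e-09). The rule for named genes also took *Slc36a1*, for a lysosomal amino acid transporter, which is among the 25 counted as higher with GR24. It was well above background on 1 control array, 3 GR24 arrays, 1 pinosylvin array and 2 resveratrol arrays. *Slc36a1* entered the tests through GR24 alone, where it is high, so no p or size is given for its change. The largest decreases with GR24 were those of *Atf6*, a sensor of stress in the endoplasmic reticulum, at -1.36 (adjusted p = 9.97e-08), *Cth*, which makes cysteine from cystathionine, at -0.92 (adjusted p = 0.000294), and *Jdp2*, a repressor related to *Atf3*, at -0.91 (adjusted p = 1.19e-06). The *Cth* value was -0.47 with normexp background correction and -0.53 in the deposited series table.

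With pinosylvin the largest increases, leaving out *Gdf15*, were those of *Gadd45a*, a gene of growth arrest, by 1.02 (SE 0.142, adjusted p = 0.000783), and *Sesn3*, a relative of *Sesn2*, by 0.79 (SE 0.13, adjusted p = 0.00239). The *Sesn3* value was 0.46 with normexp background correction and 0.43 on the second slide. Pinosylvin also raised *Atf6* in the blocked fit (0.24, adjusted p = 0.0169). The largest decreases were those of 3 transporter genes, *Slc1a5* at -0.50 (adjusted p = 0.0152), *Slc43a1* at -0.42 (adjusted p = 0.0466) and *Slc7a6* at -0.26 (adjusted p = 0.0177). The *Slc1a5* call ended without control replicate 1, with dim probes kept and with only the 6 arrays compared (adjusted p from 0.00026 to 0.0706 over its alternatives). The *Slc43a1* call ended without control replicate 2 or 3, GR24 replicate 1 or 2, pinosylvin replicate 1, 2 or 3, or resveratrol replicate 2 or 3, with normexp background correction, in the deposited series table, with dim probes kept, with only the 6 arrays compared, on slide 1 alone and with the percentile over all spots (adjusted p from 0.00396 to 0.259 over its alternatives), and its value was -0.12 with normexp, -0.19 in the deposited table and -0.67 on the second slide. The *Slc7a6* call ended without control replicate 1, or pinosylvin replicate 1 or 3, with dim probes kept, with only the 6 arrays compared and on slide 1 alone (adjusted p from 0.00411 to 0.0896 over its alternatives).

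With resveratrol the largest increases beside *Gdf15* were those of *Sesn3*, by 1.30 (SE 0.13, adjusted p = 0.000112), and *Slc7a11*, the cystine carrier, by 1.26 (SE 0.0953, adjusted p = 2.2e-05). With normexp background correction the *Sesn3* value was 0.70. The paper reports *Slc7a11* as raised by GR24 as well. The largest decreases were those of *Slc43a1* at -0.56 (adjusted p = 0.0119), *Cth* at -0.54 (adjusted p = 0.0296) and *Atf6* at -0.28 (adjusted p = 0.027). For *Slc43a1* the call ended without resveratrol replicate 1 and with only the 6 arrays compared (adjusted p from 0.000919 to 0.0561 over its alternatives), and its value was -0.28 with normexp background correction and -0.25 in the deposited series table. For *Cth* it ended without control replicate 1 or 2, or resveratrol replicate 1 or 3, with quantile normalization, with normexp background correction, in the deposited series table and with dim probes kept (adjusted p from 0.00614 to 0.347 over its alternatives), with values of -0.33 with normexp and -0.30 in the deposited table. For *Atf6* it ended without control replicate 1 or 2, or resveratrol replicate 2 or 3, with dim probes kept and with only the 6 arrays compared (adjusted p from 0.00525 to 0.103 over its alternatives), and the mean over the probes of the gene gave -0.47.

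ATF4 and C/EBP proteins bind a composite element whose core can be written TGATGNAA on one strand and TTNCATCA on the other, where N is any base. These letters were searched on both strands of promoters of 300 bases, from 250 bases before the start of a gene to 50 bases from it, in RefSeq on the rat assembly GRCr8. They occur in 1332 of 33469 promoters, or 3.98%. Promoters of 31 members were found, and 10 of them, or 32.3%, hold a match. *Aldh18a1*, *Atf3*, *Eif4ebp1* and *Gars1* were not in the promoter table. By role, a match was found for 1 of 6 transcription factors, 2 of 6 effectors, 1 of 2 secreted factors, 1 of 7 synthesis enzymes, 2 of 5 transport genes and 3 of 5 tRNA synthetases. A match is a description of the sequence and not a binding site or a cause, and no match says only that these letters are not in that window.

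The matches of 9 of the 10 members are shown, all but those of *Aars1*, because the element is known from targets of ATF4. Each line gives the gene and 30 bases of the strand of the gene, 5′ to 3′, with the 8 bases of the match in capitals.
Trib3: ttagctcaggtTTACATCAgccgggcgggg
Nupr1: aaaaggccagaTTGCATCAgacagggcttg
Chac1: cttctccgccgTTGCATCActcctgctagg
Fgf21: agacccccccaTTGCATCAttcgtccaggc
Pycr1: ggtcctgtgtaTGATGCAAtgtacaaggct
Slc7a1: cggcgcgcggcTGATGAAAccggctcggat
Slc1a4: cgcctccagcgTTGCATCAtccagccagca
Nars1: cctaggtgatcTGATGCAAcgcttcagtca
Mars1: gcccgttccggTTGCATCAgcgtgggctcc

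On GRCr8 the *Trib3* window lies at chr3:161275536-161275565 on the minus strand, *Nupr1* at chr1:190645938-190645967 on the minus strand and *Chac1* at chr3:126795953-126795982 on the plus strand. *Fgf21* lies at chr1:105221501-105221530 on the minus strand, *Pycr1* at chr10:106420925-106420954 on the minus strand and *Slc7a1* at chr12:11664447-11664476 on the plus strand. *Slc1a4* lies at chr14:98761779-98761808, *Nars1* at chr18:60275778-60275807 and *Mars1* at chr7:65023752-65023781, all on the minus strand. Of the 10 members, *Slc1a4* (2.26), *Trib3* (0.93), *Nars1* (0.77), *Aars1* (0.69) and *Mars1* (0.47) were higher with GR24, *Nupr1* (-1.02) and *Pycr1* (-0.30) were lower, and *Chac1* (-0.28) was not called, while *Fgf21* and *Slc7a1* were not tested. Other members hold no match in this window. Of these, *Atf4*, *Ddit3*, *Cebpb*, *Cebpg*, *Ddit4*, *Ppp1r15a*, *Psph*, *Shmt2*, *Slc3a2*, *Slc38a2*, *Sars1* and *Wars1* also rose with GR24. *Vldlr* and *Stc2* were lower with GR24, and *Atf5*, *Sesn2*, *Asns*, *Psat1*, *Phgdh*, *Mthfd2* and *Slc7a5* were not called. Whether a match goes with a change was not tested.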

How the data were processed

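The scanner output of 12 Agilent 1-colour arrays was used. Per the file headers, its intensities come from Agilent Feature Extraction 12.0.0.7, which subtracted the background within each array, with no normalization between arrays. The authors also deposited a table of normalized log2 values for 25848 probes, and it served as an alternative. The paper names the limma package for its data processing but not the normalization step. Control spots and spots marked as outliers were left out, the spots of a probe were averaged in log2, and the 75th percentile of all probes of the array was subtracted. The choice of all probes over all spots for this percentile was made after the data were seen, and the other is an alternative. Of 45598 probes, 24278 were tested, those with at least 0.5 of their unmarked spots well above background on every array of some group.

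Group and replicate came from the sample titles. The 12 arrays entered 1 fit in limma 3.58.1 (R 4.3.3; lmFit, eBayes) with a mean per group, 6 contrasts, two-sided tests, Benjamini-Hochberg adjustment over all genes and other probes tested in a contrast, and a threshold of 0.05. A trial of the test on simulated data is not reported here, and no result rests on it. Intervals are 95%. RefSeq accessions, versions ignored, were matched to a GRCr8 gene table, and a gene stands for its tested probe with the highest mean. Levels on every array are given for *Atf4*, *Ddit3*, *Trib3* and *Asns* and, in each role, for the 2 called members with the largest change with each compound. Of the other pathway genes, the 3 highest and 3 lowest called with each compound are named. The members and lists were chosen with earlier results of these data known.

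Whether replicate numbers pair arrays was checked on residuals from the group means. Pearson's r across probes, which are not independent, was 0.191 to 0.469 (median 0.383) in 12 pairs of arrays of different groups with the same number on slide 1, and 0.222 to 0.475 (median 0.282) in 12 such pairs there with another number. It was 0.638 to 0.744 (median 0.713) in 6 pairs on slide 2, where number and slide cannot be told apart, so fits with the replicate number as a block are given beside the results of the members. Counts of the other pathway genes and of the mitochondrial tRNA synthetases are from the fit without a block. As alternatives, the results were recomputed with quantile normalization, with normexp background correction of the median signals (offset 50), from the deposited table, without the filter, on probes above background on all 12 arrays, from the 6 arrays of a contrast, with a block for the slide or for the replicate number, on each slide alone, with the mean over the probes of a gene, with marked spots kept, with the percentile over all spots, and without each array.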

Additional observations from a re-analysis of the deposited data

How the results depend on the processing

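Over the 33 tested members, the 12 other pathway genes named by the rule and the 22 tested markers, which were added after the data were seen, no called change reversed under any alternative run. Over the 1671 values of these 67 genes and alternatives in a contrast, 9 calls were lost and 21 gained for GR24 against the control, 86 and 37 for pinosylvin, 82 and 55 for resveratrol, 41 and 41 for GR24 against pinosylvin, 33 and 51 for GR24 against resveratrol, and 91 and 44 for resveratrol against pinosylvin. Called values of these genes moved by over 1.5 times most often with normexp background correction (30 values), on slide 2 (23) and in the deposited table (21). More members were higher than lower in all 6 contrasts under every alternative with a test, which slide 2 does not have. For GR24 against the control, the counts of members higher, of members lower and of probes past the threshold were within 1.5 times their values under each such alternative; the mean over the probes of a gene has no count of probes, and with it 4059 of 10740 genes were higher and 2878 lower. For pinosylvin against the control, the members' median was 0.11 with quantile normalization, 0.11 on slide 1 and 0.23 on slide 2, and for GR24 against pinosylvin it was 0.15 on slide 2, where 1 array per group allows no test. With no filter, members higher numbered 5 for pinosylvin and 3 for resveratrol against pinosylvin, members lower 0 for resveratrol, and probes past the threshold 2409 for pinosylvin, 2680 for resveratrol and 1975 for resveratrol against pinosylvin. With only the 6 arrays compared, 6 members were higher and 0 lower for pinosylvin, 0 lower for resveratrol, and 2479 probes passed for pinosylvin. With the replicate number as a block, members lower were 2 for pinosylvin, 3 for resveratrol and 4 for resveratrol against pinosylvin, and 6946, 6768 and 6323 probes passed. With the slide as a block they were 2, 3 and 4, and 7074, 6869 and 6444 probes passed. Members lower were 2 for pinosylvin and 2 for resveratrol with quantile normalization and on slide 1, and with the percentile over all spots 3 for resveratrol and 4 for resveratrol against pinosylvin. That percentile gave 9223 probes higher and 5357 lower for GR24 against the control, in place of 7658 and 6195. For GR24 against resveratrol it gave 8707 and 4875, in place of 6662 and 5810. Leaving out 1 array gave, for pinosylvin, medians of 0.11 to 0.22, 4 to 10 members higher and 1 to 2 lower; for resveratrol, 0 to 2 lower; and for resveratrol against pinosylvin, medians of 0.0025 to 0.13, 3 to 7 members higher and 2148 to 3683 probes. No filter tests more probes and the smaller fits use fewer arrays; otherwise the cause was not tested. All 33 tested members were above background on all 12 arrays, while *Fgf21* and, in the control, *Gdf15* were below it.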
